A study of Rattus norvegicus with 21 samples.

Results

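SFSN-EC was set against SFSN-Adipo, 2 of the 7 groups of a study of rat bone marrow mesenchymal stem cells, adherent stromal cells able to become osteoblasts, chondrocytes or adipocytes. The comparison used the 3 SFSN-EC and the 3 SFSN-Adipo libraries, 6 of 21 RNA-seq libraries in all, and every gene that could be tested. All groups carry the genotype label WT and the same cell type. SFSN-EC and SFSN-Adipo share the treatment label SFSN, whose letters match the words Self-Feedback Synaptic Networks in the study's title, and the 3 Control libraries have no treatment entered. The labels do not spell out EC or Adipo, and they do not say whether the 3 libraries of a group came from separate cultures or animals, so p-values measure the spread between libraries only. The table covers 9998 genes, those whose symbols sort up to Map2k1, with 8543259 to 8856943 counts on these genes in the 6 libraries.

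The names of both groups can be read as a vessel-lining and a fat-cell fate, and the classical markers of these fates are therefore given first. Endothelial cells line blood vessels and are recognised by adhesion proteins and by receptors for vascular growth factors, whereas adipocytes are recognised by adiponectin, lipid-binding proteins and the enzymes that build and break down triglyceride. Bone marrow stromal cultures respond to growth factors and to mechanical or inflammatory signals with immediate early genes, which are transcribed within minutes and encode transcription factors and phosphatases that end kinase signalling. Such cultures often also hold macrophages, which adhere to plastic as the stromal cells do.

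Few genes differed between SFSN-EC and SFSN-Adipo. Of 6659 genes tested, 254 (3.81%) differed at an adjusted p under 0.05, with 139 (2.09%) higher and 115 (1.73%) lower in SFSN-EC. Here and below, a difference is log2 SFSN-EC minus SFSN-Adipo, and the adjusted p comes from edgeR's quasi-likelihood test with Benjamini-Hochberg adjustment over all genes tested. A gene past that threshold is called higher or lower, and levels are CPM, a gene's share of the counts on the table's genes after TMM scaling, which allows a gene to be compared between libraries but not with another gene. Among the 15 pairs of SFSN groups this pair had the second fewest calls, after the 111 genes of SFSN-EC against SFSN-TC, and SFSN-FB against SFSN-TC had the most, 1863. The differences were small: the median size among called genes was 0.38 log2 units, 61 differed at least 1.5-fold and 7 at least 2-fold. In all 254 called genes the 3 SFSN-EC libraries lay apart from the 3 SFSN-Adipo libraries, as they did in 18.1% of all genes tested.

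**Figure D1:**
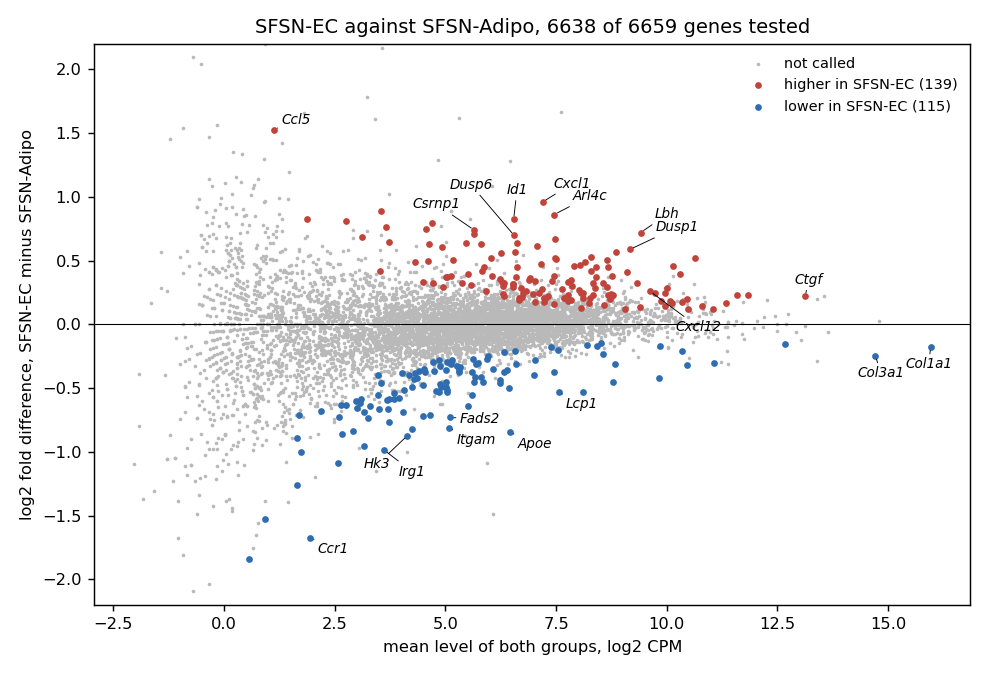
Log2 fold difference of SFSN-EC minus SFSN-Adipo against the mean level of both groups (log2 CPM) for 6638 of the 6659 genes tested; 21 genes outside the axis, none of them called, are not drawn. Red points are the 139 genes called higher and blue points the 115 called lower, and most of them lie within 1 log2 unit of 0.

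The number of calls rested on the spread shared by all 21 libraries. A fit on the 6 libraries alone called 12 genes, all among the 254. Among them were Akap12, Arl4c, Cxcl1, Dusp1, Dusp6, Kank1, Lbh and LOC691931, higher in SFSN-EC, and Irg1, Itgam and Lcp1, lower. Leaving out SFSN-Adipo 2 or SFSN-Adipo 3 lowered the count to 160 or 147. Without each of the 6 libraries in turn, 116 of the 254 genes, 70 higher and 46 lower, stayed called every time. Tested as log2(TPM + 1) with limma, 188 genes were called and 36.7% of them were higher in SFSN-EC, against 54.7% of calls in counts.

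SFSN-EC 1 stood apart from its 2 replicates. The chi-square per degree of freedom of its counts was 42.58 against SFSN-EC 2 and 41.43 against SFSN-EC 3, where SFSN-EC 2 and 3 differed by 2.16 and the SFSN-Adipo libraries by 2.66 to 6.34. In SFSN-EC 1, the shortest 25% of genes lay a median of 0.28 log2 units above, and the longest 25% 0.22 units below, their mean over all 21 libraries, among 5563 genes with a known length. Without SFSN-EC 1, 244 genes were called, 178 of them shared with the 254. Calls that ended with that library are named beside each gene.

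None of the 18 endothelial genes tested was called by edgeR, beside 3.81% of all genes. At an unadjusted p under 0.05 there were 5, beside 963 of all 6659 genes tested. The SFSN-EC and SFSN-Adipo libraries did not overlap in 7 of the 18, beside 18.1% of all genes tested. DESeq2 and limma on TPM called none of the 18, and limma voom with sample weights called 2. The median difference of the 18 genes was -0.01, beside 0.00 over all genes, with 9 above and 9 below 0. The defining markers Cdh5, the cadherin of endothelial junctions, and Kdr, a receptor for vascular endothelial growth factor, had 0 to 2 and 1 to 5 counts per library, too few to test, and Emcn and Aplnr had none in any of the 6 libraries. Pecam1 was not analysed here. Eng, a co-receptor for TGF-beta that stromal cells also carry, measured 162, 157 and 158 CPM in SFSN-EC and 163, 156 and 155 CPM in SFSN-Adipo (log2 difference 0.01, SE 0.044, adjusted p = 0.976). The 95% interval of its difference ran from -0.09 to 0.10. Flt1, another receptor for vascular endothelial growth factor, averaged 5.27 ± 1.06 CPM in SFSN-EC and 6.08 ± 0.319 CPM in SFSN-Adipo, against 34.6 CPM in Control, and both groups were called lower than Control (log2 -2.71 and -2.50). The largest positive difference in the list was that of Clec14a, a membrane lectin of endothelial cells, at 2.6, 2.69 and 2.8 CPM in SFSN-EC and 1.88, 1.12 and 1.91 CPM in SFSN-Adipo (log2 difference 0.71, SE 0.26, adjusted p = 0.173). Its libraries did not overlap, but the gene stood at fewer than 3 CPM and did not pass the test. The summed level of the 23 endothelial genes in the table was 527 to 531 CPM in SFSN-EC, 511 to 542 in SFSN-Adipo and 521 to 553 in Control.

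Of 24 adipocyte lipid storage genes tested, 1 was called higher in SFSN-EC and none lower, beside 3.81% of all genes called in either direction. The median difference of the list was 0.01. The 1 call was Aoc3, a copper amine oxidase of the adipocyte and smooth muscle surface, at 346, 339 and 354 CPM in SFSN-EC and 304, 297 and 286 CPM in SFSN-Adipo (log2 difference 0.23, SE 0.037, adjusted p = 0.00122). Adipoq, which encodes the hormone adiponectin, measured 36.7, 26.2 and 28.2 CPM in SFSN-EC and 28.9, 29.1 and 31.2 CPM in SFSN-Adipo, and its groups overlapped (log2 difference 0.03, SE 0.12, adjusted p = 0.95, 95% interval -0.22 to 0.28). Fabp4, the fatty acid carrier of fat cells, measured 187, 117 and 129 CPM in SFSN-EC and 135, 115 and 108 CPM in SFSN-Adipo (log2 difference 0.27, SE 0.19, adjusted p = 0.597). In Fabp4 the high library was SFSN-EC 1, and the other 2 SFSN-EC libraries fell among those of SFSN-Adipo. Lpl, the lipoprotein lipase that frees fatty acids from blood lipoproteins, averaged 725 ± 64.3 CPM in SFSN-EC and 736 ± 1.18 CPM in SFSN-Adipo (log2 difference -0.02, SE 0.055, adjusted p = 0.915). The interval of the Lpl difference, -0.14 to 0.09, was among the narrowest in the list. Lep and Lgals12 had too few counts to test, and Pparg was not analysed here.

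Most, but not all, of these adipocyte genes were higher than Control in both groups. Adipoq averaged 1.47 CPM in Control, which put SFSN-EC 4.35 and SFSN-Adipo 4.32 log2 units higher. Gpd1, which supplies the glycerol backbone of triglyceride, lay 3.71 and 3.81 units above Control, and Angptl4, a secreted inhibitor of lipoprotein lipase, 3.38 and 3.16 units above it. Of the 24 lipid storage genes, 17 were called higher and 2 lower in SFSN-EC than in Control, and 16 higher and 3 lower in SFSN-Adipo, beside 33.3% and 36.5% of all genes called in either direction. These 2 counts share the Control libraries. The genes called lower in both groups were Hsd11b1, which reactivates glucocorticoids (-1.21 and -1.15), and Dgat1, which completes triglyceride synthesis (-0.19 and -0.29); Aoc3 was called lower in SFSN-Adipo (-0.28), and in SFSN-EC its difference from Control was -0.05 (adjusted p = 0.361). The summed level of 26 genes was 2343 to 2496 CPM in SFSN-EC, 2285 to 2401 in SFSN-Adipo, 2727 to 2800 in SFSN-TC and 1545 to 1645 in Control. SFSN-Adipo was thus not the SFSN group with the highest level of this list; its libraries overlapped those of SFSN-EC, and all 3 SFSN-TC libraries lay above both groups.

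**Figure D2:**
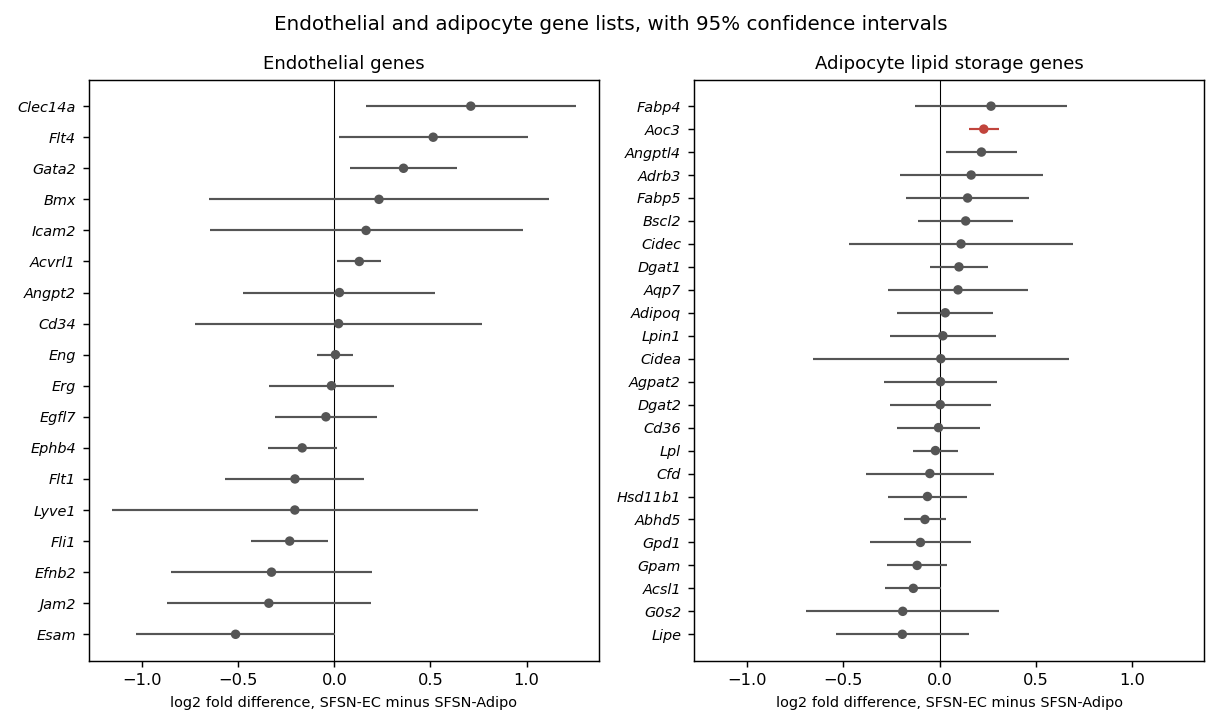
Log2 fold difference of SFSN-EC minus SFSN-Adipo (points) with its 95% confidence interval (lines) for the 18 endothelial and the 24 adipocyte lipid storage genes tested. The red point, Aoc3, is the only one of the 42 that passed an adjusted p of 0.05.

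Related lipid genes gave a similar picture for breakdown and another for synthesis. Of 29 genes of fatty acid oxidation and PPAR targets, none was called in edgeR's quasi-likelihood test. In that test 4 had an unadjusted p under 0.05, beside 963 of all 6659 genes tested. DESeq2, limma voom and limma on TPM called 1 each. Of 15 fatty acid synthesis genes, 2 were lower in SFSN-EC, Fads2 and Aacs. Of 18 genes on the list of cholesterol synthesis and uptake, 5 were lower and none higher, with a median of -0.18 and 16 of 18 below 0. Fads2 and Aacs stand on both lists and are counted in both. Over all genes, 1.73% were called lower. Fads2, the desaturase that begins the making of long polyunsaturated fatty acids, measured 23.8, 28.3 and 26 CPM in SFSN-EC and 41.1, 44.5 and 44 CPM in SFSN-Adipo (log2 difference -0.73, SE 0.10, adjusted p = 0.000217). All 3 SFSN-EC libraries of Fads2 lay far below those of SFSN-Adipo, and SFSN-TC was lower still at 22.8 CPM. Acat2, a cytosolic thiolase at the start of sterol synthesis, measured 22.1, 25.4 and 26.3 CPM in SFSN-EC and 35.9, 33.2 and 33.1 CPM in SFSN-Adipo (log2 difference -0.47, SE 0.092, adjusted p = 0.0054). Fads2 and Acat2 stayed called without any single library, whereas the other 3 did not. Dhcr7, which makes the last step to cholesterol, averaged 26.9 ± 3.24 CPM in SFSN-EC and 37.8 ± 3.4 CPM in SFSN-Adipo (log2 difference -0.49, SE 0.11, adjusted p = 0.0131) and lost its call without SFSN-Adipo 1, SFSN-EC 1 or SFSN-EC 3 (adjusted p = 0.0576 to 0.0797). Cyp51, a demethylase of the sterol nucleus, averaged 279 ± 10.3 CPM in SFSN-EC and 312 ± 4.94 CPM in SFSN-Adipo (log2 difference -0.16, SE 0.041, adjusted p = 0.0307) and Aacs, which activates acetoacetate for lipid synthesis, averaged 56.7 ± 0.599 CPM in SFSN-EC and 67.3 ± 2.79 CPM in SFSN-Adipo (log2 difference -0.25, SE 0.065, adjusted p = 0.0397). The call of Cyp51 ended without SFSN-Adipo 1, SFSN-Adipo 2, SFSN-Adipo 3, SFSN-EC 1 or SFSN-EC 3 (adjusted p = 0.083 to 0.132). That of Aacs ended without any 1 of the 6 libraries (adjusted p = 0.07 to 0.19).

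Immediate early genes gave the largest number of calls in the higher direction among the lists. Of 28 tested, 9 were higher and none lower, beside 2.09% of all genes called higher. Their median difference was 0.32, and 26 of 28 lay above 0. The summed level of the list was 6671 to 7118 CPM in SFSN-EC, 5544 to 5619 in SFSN-Adipo, 4957 to 5209 in Control and 7348 to 7787 in SFSN-TC. SFSN-EC therefore lay above SFSN-Adipo in every library, and below SFSN-TC.

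Dusp1, a nuclear phosphatase that switches off MAP kinases, measured 691, 711 and 676 CPM in SFSN-EC and 456, 464 and 461 CPM in SFSN-Adipo (log2 difference 0.59, SE 0.04, adjusted p = 6.54e-08). Its SFSN-Adipo libraries lay near Control, which averaged 482 CPM. Dusp6, the cytoplasmic phosphatase of ERK and a feedback target of that kinase, measured 122, 108 and 119 CPM in SFSN-EC and 70.7, 73.4 and 70.7 CPM in SFSN-Adipo (log2 difference 0.70, SE 0.062, adjusted p = 3.21e-06). Both groups were below the Control mean of 239.9 CPM for Dusp6, SFSN-Adipo more so. Btg2, an antiproliferative regulator of mRNA decay that p53 also induces, measured 394, 381 and 388 CPM in SFSN-EC and 267, 295 and 292 CPM in SFSN-Adipo (log2 difference 0.45, SE 0.044, adjusted p = 1.17e-05), against 92.2 CPM in Control. Ier3, a stress-induced survival factor, averaged 474 ± 38.2 CPM in SFSN-EC and 335 ± 6.78 CPM in SFSN-Adipo (log2 difference 0.50, SE 0.059, adjusted p = 4.73e-05). Atf3, a stress-induced transcription factor, averaged 42.1 ± 2.87 CPM in SFSN-EC and 29.6 ± 1.92 CPM in SFSN-Adipo (log2 difference 0.51, SE 0.076, adjusted p = 0.000545). The 5 genes kept their calls without any single library.

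The other 4 called members, outside the rule for named genes, were the AP-1 family genes Fosl1 (0.63) and Junb (0.41), the small Maf factor Maff (0.61) and the TGF-beta inducible Klf10 (0.33). Of these, Junb lost its call without SFSN-Adipo 2 or SFSN-Adipo 3 (adjusted p = 0.055 to 0.0595). The best known members did not pass the test: Fos measured 400.2, 429 and 433 CPM in SFSN-EC and 373, 383 and 391 CPM in SFSN-Adipo (log2 difference 0.14, SE 0.052, adjusted p = 0.193), and Egr1 measured 191, 259.8 and 247 CPM in SFSN-EC and 232, 235 and 246 CPM in SFSN-Adipo (log2 difference -0.03, SE 0.091, adjusted p = 0.925). The Egr1 libraries overlapped and its difference was near 0. Without SFSN-EC 1, 13 of the 28 were called higher, and in the fit on 6 libraries 2, Dusp1 and Dusp6.

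The promoters of the 9 immediate early members called higher were read from RefSeq (assembly GRCr8), and 6 of the 9 had an entry. The cyclic AMP response element TGACGTCA, which reads the same on both strands, occurred between 250 bases before and 50 after the start in 3 of the 6, and in 1.91% of 27457 rat promoters of that length. Among the 19 of 28 tested members with an entry it occurred in 5, of which Ier2 and Jund were not called. The 3 promoters are shown as the 220 bases before the start, 5′ to 3′ on the gene's strand, with the element in capitals. Dusp1 lies on the plus strand at chr10:17184633-17184852, Btg2 on the minus strand at chr13:48087691-48087910 and Maff on the plus strand at chr7:112792567-112792786.
Dusp1: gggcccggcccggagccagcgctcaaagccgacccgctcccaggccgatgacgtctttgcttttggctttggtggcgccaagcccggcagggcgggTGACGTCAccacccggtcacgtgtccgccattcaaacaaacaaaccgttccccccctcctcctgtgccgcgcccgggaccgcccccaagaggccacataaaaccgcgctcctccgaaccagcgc
Btg2: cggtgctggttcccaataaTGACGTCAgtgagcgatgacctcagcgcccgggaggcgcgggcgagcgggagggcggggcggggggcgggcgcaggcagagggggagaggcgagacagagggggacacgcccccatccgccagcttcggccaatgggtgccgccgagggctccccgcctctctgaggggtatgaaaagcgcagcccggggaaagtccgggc
Maff: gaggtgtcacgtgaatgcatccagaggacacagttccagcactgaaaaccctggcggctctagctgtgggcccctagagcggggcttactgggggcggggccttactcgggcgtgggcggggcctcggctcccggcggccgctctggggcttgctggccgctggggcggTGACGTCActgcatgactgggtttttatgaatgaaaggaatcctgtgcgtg
The element began 124 bases before the start in Dusp1, 201 in Btg2 and 51 in Maff. The AP-1 motif TGANTCA and the CArG box were in none of the 6 windows, beside 7.33% and 1.64% of all promoters, both strands searched. These matches describe the letters and do not show that a factor binds.

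Chemokine and cytokine genes moved both ways. Of 23 tested, 6 were higher and 2 lower in SFSN-EC, beside 2.09% and 1.73% of all genes, with a median of 0.26. Cxcl1, which attracts neutrophils, was the gene with the largest positive difference among called genes with a mean of at least 10 CPM: it measured 215, 189 and 178 CPM in SFSN-EC and 86.5, 104 and 109 CPM in SFSN-Adipo (log2 difference 0.96, SE 0.10, adjusted p = 1.62e-05), 1.95-fold. Every SFSN-EC library of Cxcl1 exceeded every SFSN-Adipo library, and both groups lay far above Control, which averaged 6.51 CPM. The levels in SFSN-TC and SFSN-FB, 203 and 225 CPM, were near or above that of SFSN-EC, and those in SFSN-Ot and SFSN-Neu, 67.2 and 52.6 CPM, below that of SFSN-Adipo.

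The RefSeq promoter of Cxcl1 (GRCr8, chr14:17479322-17479541, minus strand) is shown because an NF-kappaB site, in capitals, was found in it, beginning 84 bases before the start. Such a site was in 1 of the 4 called chemokine genes with an entry and in 4.16% of all rat promoters. The AP-1 motif was in 1 of the same 4, Cxcl14, beside 7.33% of all promoters. In 2 other lists, a PU.1 site was in 2 of the 7 called macrophage and leukocyte genes with an entry, beside 2.44%. The sterol response element was in none of the 5 called cholesterol genes, beside 1.13%.
Cxcl1: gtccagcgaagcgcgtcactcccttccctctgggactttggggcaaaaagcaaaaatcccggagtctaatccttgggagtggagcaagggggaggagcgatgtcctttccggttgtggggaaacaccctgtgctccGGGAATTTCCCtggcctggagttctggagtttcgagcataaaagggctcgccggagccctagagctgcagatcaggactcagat
Csf1, the growth factor on which macrophages depend, measured 1111, 1136 and 1130.2 CPM in SFSN-EC and 936, 918 and 915 CPM in SFSN-Adipo (log2 difference 0.29, SE 0.031, adjusted p = 1.93e-05). Ccl2, which attracts monocytes, measured 377, 361 and 357 CPM in SFSN-EC and 303, 291 and 303 CPM in SFSN-Adipo (log2 difference 0.29, SE 0.048, adjusted p = 0.0014), and its mean was 182 CPM in Control. Cxcl12, the factor that holds blood stem cells in marrow, measured 845, 891 and 841 CPM in SFSN-EC and 722, 721 and 709.9 CPM in SFSN-Adipo (log2 difference 0.26, SE 0.035, adjusted p = 0.000197). In Csf1, Ccl2 and Cxcl12 the differences were small, and the libraries within each group lay close together. All of them lost their calls in limma on TPM and in the fit on 6 libraries. Ccl2 also lost its call once the gene-length trend of each library was removed. Il33, an alarm signal of the interleukin-1 family, was lower at 19.8, 17 and 19.6 CPM in SFSN-EC and 27.5, 25.2 and 25.8 CPM in SFSN-Adipo (log2 difference -0.48, SE 0.10, adjusted p = 0.0083). The remaining calls, outside the rule for named genes, were Ccl5 (1.53, at 3.26 ± 1.08 CPM in SFSN-EC and 1.12 ± 0.227 CPM in SFSN-Adipo) and Cxcl14 (0.65), higher, and Ccl3 (-0.58), lower. The call of Ccl5 ended without SFSN-Adipo 1, SFSN-Adipo 2, SFSN-Adipo 3, SFSN-EC 1 or SFSN-EC 3 (adjusted p = 0.0865 to 0.157). That of Cxcl14 ended without SFSN-Adipo 1, SFSN-Adipo 2, SFSN-Adipo 3, SFSN-EC 1 or SFSN-EC 2 (adjusted p = 0.0547 to 0.155), and that of Ccl3 without SFSN-Adipo 1, SFSN-Adipo 3 or SFSN-EC 2 (adjusted p = 0.0626 to 0.0769). Il6, at 0.33, and Il1b, at -0.31, did not pass the test (adjusted p = 0.119 and 0.319).

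The genes with the highest differences outside the lists were of mixed kind. Arl4c, a small GTPase of the cell cortex, measured 223, 228 and 231 CPM in SFSN-EC and 134, 119 and 122 CPM in SFSN-Adipo (log2 difference 0.86, SE 0.046, adjusted p = 2.25e-09). Its SFSN-EC level was close to the Control mean of 238 CPM, and SFSN-Adipo was the lowest of the 6 SFSN groups. Lbh, a transcriptional cofactor that responds to Wnt signals, measured 873, 826 and 844 CPM in SFSN-EC and 533, 517 and 493 CPM in SFSN-Adipo (log2 difference 0.72, SE 0.038, adjusted p = 2.25e-09), below the Control mean of 1152 CPM in both groups. Csrnp1, a nuclear protein induced by axin, measured 58.7, 65.8 and 64 CPM in SFSN-EC and 32.2, 40.0 and 40.7 CPM in SFSN-Adipo (log2 difference 0.74, SE 0.10, adjusted p = 0.000167). Eva1a, a membrane protein linked to autophagy, averaged 33.2 ± 3.78 CPM in SFSN-EC and 19.1 ± 2.53 CPM in SFSN-Adipo (log2 difference 0.80, SE 0.12, adjusted p = 0.000635). LOC691931, which RefSeq names Fam241a, averaged 61.7 ± 2.9 CPM in SFSN-EC and 37.7 ± 2.04 CPM in SFSN-Adipo (log2 difference 0.71, SE 0.089, adjusted p = 8.94e-05), and LOC100911572, without a RefSeq name here, averaged 15.1 ± 0.793 CPM in SFSN-EC and 8.17 ± 0.384 CPM in SFSN-Adipo (log2 difference 0.89, SE 0.15, adjusted p = 0.0016). These 6 genes stayed called without any single library.

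3 further genes that the rule named were less certain. LOC684871 (Tcim) lay at 0.76, LOC500300 (Depp1) at 0.69 and the histone gene Hist2h2aa3, a member of a multigene family whose reads may be shared, at 0.75. The call of Tcim ended without SFSN-Adipo 1, SFSN-Adipo 2, SFSN-EC 1, SFSN-EC 2 or SFSN-EC 3 (adjusted p = 0.0533 to 0.158). That of Depp1 ended without SFSN-Adipo 1 or SFSN-EC 1 (adjusted p = 0.0641 to 0.082). That of the histone gene ended without SFSN-Adipo 1, SFSN-Adipo 2, SFSN-Adipo 3, SFSN-EC 1 or SFSN-EC 2 (adjusted p = 0.0669 to 0.235).

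BMPs and TGF-beta steer marrow stromal cells between bone, cartilage and fat. Members of the lists of BMP targets and antagonists and of TGF-beta and YAP targets were higher in SFSN-EC where they were called. The BMP list holds a ligand, targets and antagonists together, so its count gives no direction of BMP signalling. Of 16 BMP targets and antagonists tested, 6 were higher and none lower, beside 2.09% and 1.73% of all genes, with a median of 0.13. Grem1, a secreted antagonist of BMPs, measured 3776, 4075 and 4089 CPM in SFSN-EC and 3384, 3362 and 3416 CPM in SFSN-Adipo (log2 difference 0.23, SE 0.036, adjusted p = 0.000757). All 3 SFSN-EC libraries of Grem1 lay above the 3 SFSN-Adipo libraries, and the Control mean was lower still at 2791 CPM. Bmp2, a ligand that drives bone formation, averaged 23.3 ± 1.13 CPM in SFSN-EC and 16.6 ± 1.38 CPM in SFSN-Adipo (log2 difference 0.49, SE 0.12, adjusted p = 0.022).

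The Id genes encode helix-loop-helix inhibitors of differentiation that BMPs induce. Id1 measured 156, 102 and 99.1 CPM in SFSN-EC and 71.3, 62.7 and 67.7 CPM in SFSN-Adipo (log2 difference 0.82, SE 0.16, adjusted p = 0.00496). The highest Id1 value was that of SFSN-EC 1, and without it the difference was 0.58 and still called (adjusted p = 0.0185). Id3 measured 1586, 1168 and 1187 CPM in SFSN-EC and 1011, 928 and 928 CPM in SFSN-Adipo (log2 difference 0.46, SE 0.11, adjusted p = 0.0231), and Id4 averaged 46 ± 4.76 CPM in SFSN-EC and 36.8 ± 1.14 CPM in SFSN-Adipo (log2 difference 0.32, SE 0.084, adjusted p = 0.0376). SFSN-EC 1 was again the highest library in both. Id3 lost its call without SFSN-Adipo 2, SFSN-Adipo 3 or SFSN-EC 1 (adjusted p = 0.0951 to 0.105). Id4 lost it without SFSN-Adipo 1, SFSN-Adipo 2, SFSN-Adipo 3, SFSN-EC 1 or SFSN-EC 3 (adjusted p = 0.0712 to 0.15), and Bmp2 without SFSN-Adipo 2, SFSN-Adipo 3 or SFSN-EC 3 (adjusted p = 0.0798 to 0.104). The count of 6 ranged from 3 to 6 with each library left out, and was 3 without SFSN-Adipo 2 and without SFSN-Adipo 3. Id2 did not pass the test (0.15, adjusted p = 0.332).

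Of 16 TGF-beta and YAP target genes tested, 8 were higher and none lower, beside 2.09% and 1.73% of all genes, with a median of 0.20. Both groups lay below Control: the summed level was 17439 to 17573 CPM in SFSN-EC, 15196 to 15458 in SFSN-Adipo and 21215 to 21907 in Control. Against Control, 9 of the 16 were called lower in SFSN-EC and 13 in SFSN-Adipo, with none higher in either. Over all genes, 33.3% and 36.5% were called against Control in either direction, and both counts use the same Control libraries. Amotl2, a scaffold that restrains YAP and is itself a YAP target, measured 1067, 1084 and 1080.2 CPM in SFSN-EC and 891, 923 and 910.0 CPM in SFSN-Adipo (log2 difference 0.25, SE 0.029, adjusted p = 5.18e-05). F3, tissue factor, which starts blood clotting, measured 139, 126 and 136 CPM in SFSN-EC and 109, 105 and 100.4 CPM in SFSN-Adipo (log2 difference 0.35, SE 0.053, adjusted p = 0.00065). Ctgf, a matricellular growth factor that RefSeq names Ccn2, measured 10129, 9387 and 9408 CPM in SFSN-EC and 8496, 8181 and 8158 CPM in SFSN-Adipo (log2 difference 0.22, SE 0.05, adjusted p = 0.0171). Amotl2 and F3 kept their calls without any single library, and Ctgf lost its call without SFSN-Adipo 2, SFSN-Adipo 3 or SFSN-EC 1 (adjusted p = 0.0638 to 0.085). Bhlhe40, a circadian and stress-induced repressor, averaged 167 ± 26.3 CPM in SFSN-EC and 119.9 ± 8.03 CPM in SFSN-Adipo (log2 difference 0.48, SE 0.10, adjusted p = 0.0109) and lost its call without SFSN-Adipo 1 or SFSN-EC 2 (adjusted p = 0.0646 to 0.0666). Edn1, the vasoconstrictor endothelin-1, averaged 29.4 ± 1.46 CPM in SFSN-EC and 23.5 ± 0.548 CPM in SFSN-Adipo (log2 difference 0.33, SE 0.073, adjusted p = 0.0149) and lost its call without SFSN-Adipo 1, SFSN-Adipo 3 or SFSN-EC 3 (adjusted p = 0.0611 to 0.0658). The other 3 calls, outside the rule for named genes, were Ankrd1 (0.83), Fjx1 (0.38) and Lats2 (0.13). The call of Ankrd1 ended without any 1 of the 6 libraries (adjusted p = 0.0658 to 0.195), that of Fjx1 without SFSN-Adipo 2, SFSN-Adipo 3, SFSN-EC 1, SFSN-EC 2 or SFSN-EC 3 (adjusted p = 0.0735 to 0.171) and that of Lats2 without SFSN-Adipo 1, SFSN-Adipo 2, SFSN-Adipo 3, SFSN-EC 2 or SFSN-EC 3 (adjusted p = 0.0542 to 0.191). The count fell from 8 to 4 without SFSN-EC 2, SFSN-EC 3, SFSN-Adipo 1 or SFSN-Adipo 2 and to 3 without SFSN-Adipo 3, and it was 1 in TPM with limma.

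Other signalling ligands followed in smaller numbers. Beside each count in this paragraph, 2.09% of all genes were called higher and 1.73% lower. Of 19 angiogenic ligands, which act on endothelial cells rather than mark them, 4 were higher and none lower. Limma on TPM and the fit on 6 libraries called none of them, DESeq2 called 5 higher, and without SFSN-Adipo 3 there were 2. Besides Cxcl12 and Edn1 these were Hbegf, an EGF receptor ligand, at 142, 149 and 142 CPM in SFSN-EC and 116, 112 and 114 CPM in SFSN-Adipo (log2 difference 0.34, SE 0.058, adjusted p = 0.00174), and Figf, the vascular endothelial growth factor D, at 0.23, which lost its call without SFSN-Adipo 1, SFSN-Adipo 2, SFSN-Adipo 3, SFSN-EC 2 or SFSN-EC 3 (adjusted p = 0.0843 to 0.173). In Hbegf both groups were below the Control mean of 275 CPM. Of 11 Notch pathway genes, 2 were higher: the target repressor Hes1 averaged 135 ± 11.7 CPM in SFSN-EC and 105 ± 4.2 CPM in SFSN-Adipo (log2 difference 0.37, SE 0.077, adjusted p = 0.00968) and the ligand Dll1 averaged 8.64 ± 0.633 CPM in SFSN-EC and 4.92 ± 0.571 CPM in SFSN-Adipo (log2 difference 0.81, SE 0.17, adjusted p = 0.0089). Hes1 lost its call without SFSN-Adipo 3 (adjusted p = 0.0626), and Dll1 without SFSN-Adipo 2 (adjusted p = 0.058). Of 17 Wnt receptors and targets, 3 were higher, among them Ccnd1, cyclin D1, at 442, 434 and 447 CPM in SFSN-EC and 389, 366 and 371 CPM in SFSN-Adipo (log2 difference 0.23, SE 0.037, adjusted p = 0.0011), which kept its call without any single library. Lef1, at 0.37, lost its call without SFSN-Adipo 1, SFSN-Adipo 3 or SFSN-EC 1 (adjusted p = 0.0686 to 0.085). Dkk3, at 0.16, lost it without SFSN-Adipo 2, SFSN-Adipo 3, SFSN-EC 1 or SFSN-EC 3 (adjusted p = 0.0755 to 0.138). Of 13 genes of the insulin-like growth factor system, 2 were lower: Igf1 measured 68.6, 74.5 and 77.2 CPM in SFSN-EC and 90.0, 94.3 and 97.7 CPM in SFSN-Adipo (log2 difference -0.36, SE 0.055, adjusted p = 0.000795), and Igf2 averaged 11.6 ± 1.08 CPM in SFSN-EC and 16.9 ± 2.58 CPM in SFSN-Adipo (log2 difference -0.54, SE 0.11, adjusted p = 0.00862). Igf2 lost its call without SFSN-Adipo 1 (adjusted p = 0.0576).

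Regulators of adipogenesis, as distinct from fat storage genes, included 4 genes higher and 1 lower of 24, beside 2.09% and 1.73% of all genes. Without SFSN-Adipo 3 none was higher, and the fit on 6 libraries called none in either direction. Hes1, Bmp2 and Id4 have been given, and Foxc2, a forkhead factor that favours energy-burning fat, averaged 67.1 ± 8.64 CPM in SFSN-EC and 49.2 ± 2.9 CPM in SFSN-Adipo (log2 difference 0.45, SE 0.11, adjusted p = 0.0243). Klf5, which promotes early adipocyte differentiation, averaged 9.58 ± 0.524 CPM in SFSN-EC and 12.6 ± 1.12 CPM in SFSN-Adipo (log2 difference -0.40, SE 0.11, adjusted p = 0.0432). Foxc2 lost its call without SFSN-Adipo 2, SFSN-Adipo 3, SFSN-EC 1 or SFSN-EC 2 (adjusted p = 0.0501 to 0.127). Klf5 lost it without SFSN-Adipo 1, SFSN-Adipo 2, SFSN-EC 1, SFSN-EC 2 or SFSN-EC 3 (adjusted p = 0.0691 to 0.173).

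**Figure D3:**
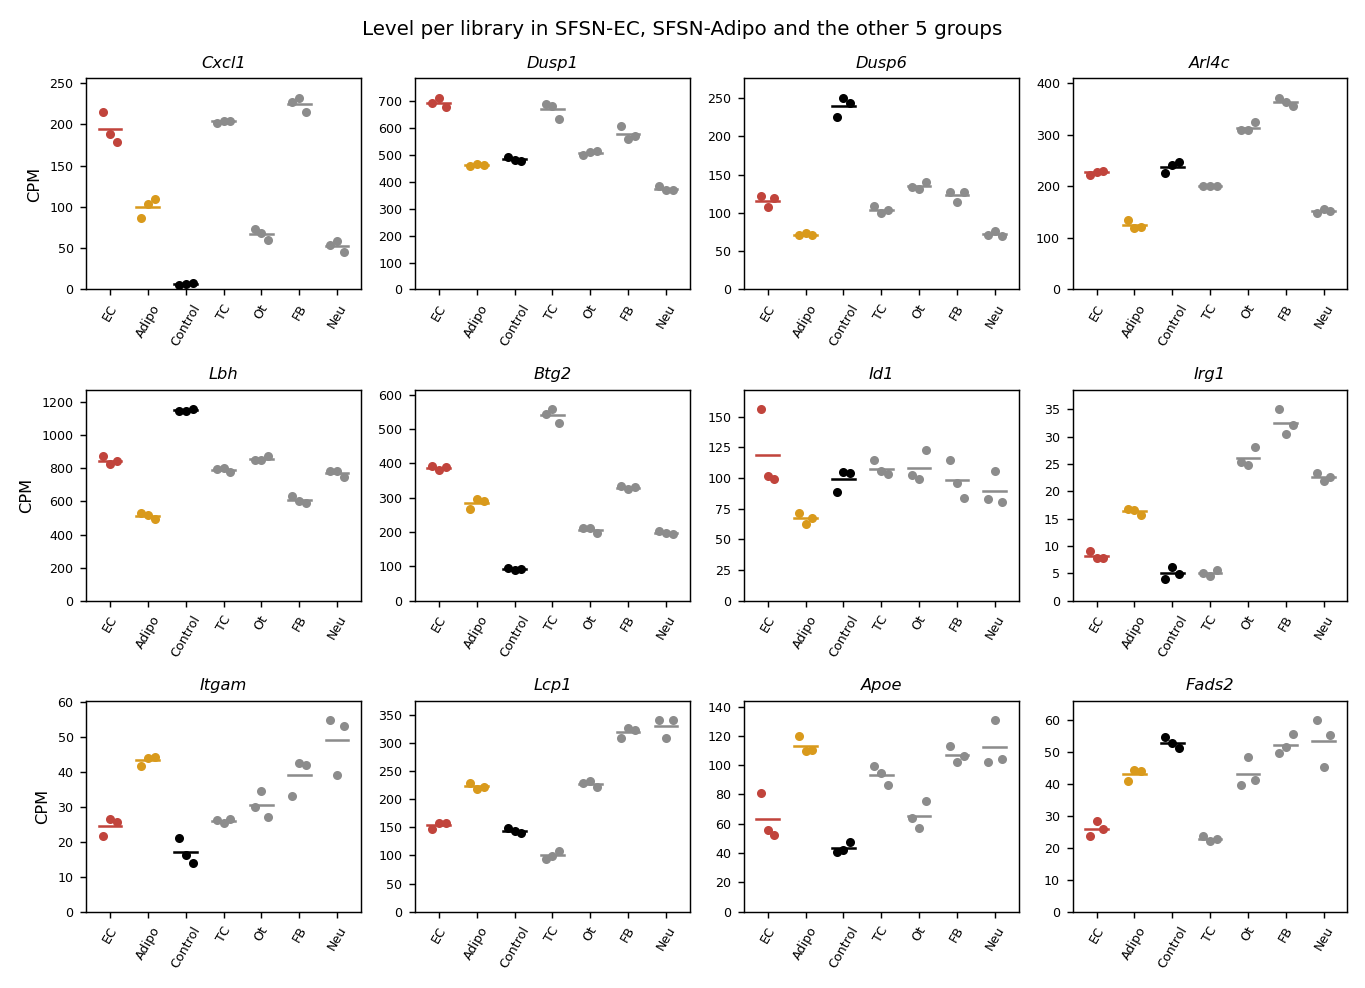
Level in CPM of 12 genes in each of the 21 libraries, by group; points are libraries and lines the means of 3. In each panel the 3 SFSN-EC libraries (red) lie wholly above or below the 3 SFSN-Adipo libraries (orange), as in all 254 called genes, from which the 12 were taken. In Arl4c, Lbh, Dusp6 and Id1 the SFSN-Adipo mean is the lowest of the 6 SFSN groups.

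Genes of macrophages and other leukocytes gave the largest number of calls in the lower direction among the lists. Of 22 tested, 10 were lower and none higher, beside 1.73% of all genes called lower. Their median difference was -0.43, and 21 of 22 lay below 0. 2 further members had almost no counts: Cd163, a scavenger receptor of tissue macrophages, was at 0 in all 6 libraries and Cd52 at 0 or 1. In bulk RNA, fewer cells of a type and less RNA per cell cannot be told apart.

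Itgam, the integrin chain CD11b of myeloid cells, measured 21.7, 26.5 and 25.5 CPM in SFSN-EC and 41.6, 43.9 and 44.1 CPM in SFSN-Adipo (log2 difference -0.81, SE 0.14, adjusted p = 0.00248). Lcp1, the actin bundler of leukocytes, measured 146, 158 and 158 CPM in SFSN-EC and 229, 218 and 222 CPM in SFSN-Adipo (log2 difference -0.53, SE 0.055, adjusted p = 1.59e-05). Csf1r, the receptor for Csf1, measured 109, 113 and 111 CPM in SFSN-EC and 143, 145 and 151 CPM in SFSN-Adipo (log2 difference -0.40, SE 0.048, adjusted p = 5.68e-05), and so was lower in the group in which its ligand gene was higher. Cd53, a tetraspanin of leukocytes, averaged 35.6 ± 3.9 CPM in SFSN-EC and 55.6 ± 4.99 CPM in SFSN-Adipo (log2 difference -0.64, SE 0.10, adjusted p = 0.000892), and Laptm5, a lysosomal protein of blood cells, averaged 48.4 ± 4.91 CPM in SFSN-EC and 66.1 ± 3.75 CPM in SFSN-Adipo (log2 difference -0.45, SE 0.082, adjusted p = 0.00305). These 5 genes kept their calls without any single library. The other 5 calls, outside the rule for named genes, were Itgb2 (-0.45), Lyz2 (-0.42), Coro1a (-0.46), Ctss (-0.51) and Lyn (-0.31), of which Itgb2 and Lyz2 kept their calls in each removal. Coro1a lost its call without SFSN-Adipo 1, SFSN-Adipo 3, SFSN-EC 2 or SFSN-EC 3 (adjusted p = 0.07 to 0.132). Ctss lost it without SFSN-Adipo 1, SFSN-Adipo 2, SFSN-Adipo 3, SFSN-EC 2 or SFSN-EC 3 (adjusted p = 0.0846 to 0.137), and Lyn without SFSN-Adipo 2, SFSN-Adipo 3, SFSN-EC 1 or SFSN-EC 3 (adjusted p = 0.0571 to 0.118). The classical marker Cd68 lay at -0.44 and the complement genes C1qa, C1qb and C1qc at -0.29, -0.26 and -0.15, and none of the 4 passed the test.

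The summed level of the 24 macrophage and leukocyte genes was 1683 to 1884 CPM in SFSN-EC, 2215 to 2366 in SFSN-Adipo, 1427 to 1494 in Control, 1516 to 1570 in SFSN-TC and 2640 to 2822 in SFSN-Neu. SFSN-Adipo thus lay between SFSN-EC and SFSN-Neu, and both SFSN groups above Control. Against Control, 10 of the 22 were called higher in SFSN-EC and 16 in SFSN-Adipo, with none lower in either, beside 33.3% and 36.5% of all genes called in either direction. Both counts use the same Control libraries.

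Several genes with the largest negative differences outside this list are also known from myeloid cells. Irg1, which RefSeq names Acod1 and which makes itaconate in activated macrophages, had the largest negative difference among called genes with a mean of at least 10 CPM and measured 9.03, 7.83 and 7.84 CPM in SFSN-EC and 16.7, 16.6 and 15.7 CPM in SFSN-Adipo (log2 difference -0.99, SE 0.11, adjusted p = 4.24e-05), 1.98-fold. Alox5, the 5-lipoxygenase that begins leukotriene synthesis, measured 6.43, 7.27 and 4.48 CPM in SFSN-EC and 13.6, 13.4 and 8.33 CPM in SFSN-Adipo (log2 difference -0.96, SE 0.19, adjusted p = 0.00751). Hk3, a hexokinase of myeloid cells, measured 13.9, 11 and 12.5 CPM in SFSN-EC and 22.7, 21.2 and 24.5 CPM in SFSN-Adipo (log2 difference -0.87, SE 0.10, adjusted p = 2.78e-05). Apoe, an apolipoprotein that macrophages and adipocytes both secrete, measured 81.3, 55.6 and 52.4 CPM in SFSN-EC and 120.2, 109.7 and 110.2 CPM in SFSN-Adipo (log2 difference -0.85, SE 0.14, adjusted p = 0.00125), and Arhgap45, a GTPase-activating protein of blood cells, averaged 19 ± 0.586 CPM in SFSN-EC and 31 ± 2.69 CPM in SFSN-Adipo (log2 difference -0.71, SE 0.08, adjusted p = 3.7e-05). The rule that named these genes required libraries that do not overlap. Their calls held without any single library. Ccr1, a chemokine receptor of monocytes, and Gpr84, a fatty acid receptor of myeloid cells, were among the 7 genes with differences of at least 2-fold, at -1.68 and -1.09, with means below 10 CPM in both groups. The part of the macrophage genes' own difference in these results, and in those of the lipid genes, was not tested.

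The remaining genes that the rule named as lowest were of mixed kind. Cpxm2, a secreted carboxypeptidase-like protein, averaged 9.84 ± 1.02 CPM in SFSN-EC and 16.7 ± 0.606 CPM in SFSN-Adipo (log2 difference -0.77, SE 0.091, adjusted p = 5.18e-05). Cilp2, a cartilage matrix protein, averaged 7.18 ± 0.732 CPM in SFSN-EC and 12 ± 0.334 CPM in SFSN-Adipo (log2 difference -0.74, SE 0.12, adjusted p = 0.00116). A2m, a protease inhibitor of plasma, averaged 17.1 ± 2.46 CPM in SFSN-EC and 28.1 ± 1.15 CPM in SFSN-Adipo (log2 difference -0.72, SE 0.15, adjusted p = 0.0102) and lost its call without SFSN-EC 2 (adjusted p = 0.0578). Ap1s3, a clathrin adaptor subunit, lay at -0.69 and lost its call without SFSN-Adipo 1, SFSN-Adipo 2 or SFSN-EC 1 (adjusted p = 0.0929 to 0.108). LOC100364062, a pseudogene of pyruvate kinase whose reads cannot be separated from those of its parent with certainty, lay at -0.82 and lost its call without any 1 of the 6 libraries (adjusted p = 0.0614 to 0.239).

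Matrix genes differed by small amounts. Of 21 collagen chain genes, 3 were lower and none higher, beside 1.73% and 2.09% of all genes. In this list 17 lay below 0, with a median of -0.10. Col1a1, the main chain of bone collagen, measured 55043, 62643 and 62136 CPM in SFSN-EC and 70519.6, 67661 and 64952 CPM in SFSN-Adipo (log2 difference -0.18, SE 0.047, adjusted p = 0.0434). Col3a1, the chain of reticular collagen, measured 21956, 25829 and 26034 CPM in SFSN-EC and 29488, 29574 and 28468 CPM in SFSN-Adipo (log2 difference -0.25, SE 0.059, adjusted p = 0.0244), and Col8a2 averaged 863 ± 31.7 CPM in SFSN-EC and 970.4 ± 55.4 CPM in SFSN-Adipo (log2 difference -0.17, SE 0.041, adjusted p = 0.0238). In all 3 genes SFSN-EC 1 was the lowest library. Without SFSN-EC 1 no collagen gene was called and the median of the list was 0.04, with the sign turned, and limma on TPM called none as well. Leaving out SFSN-Adipo 1 or SFSN-Adipo 2 also ended the 3 calls, as did leaving out SFSN-EC 3 that of Col1a1 and SFSN-Adipo 3 that of Col3a1. Col1a1 and Col8a2, but not Col3a1, lost their calls once the gene-length trend of each library was removed.

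Of 19 genes of elastic fibres and crosslinking, 4 were lower and 1 higher, beside 1.73% and 2.09% of all genes, and limma on TPM called 1 in all. Lox, the enzyme that crosslinks collagen and elastin, measured 1691, 2044 and 2059 CPM in SFSN-EC and 2378, 2441 and 2321 CPM in SFSN-Adipo (log2 difference -0.30, SE 0.061, adjusted p = 0.00735), and its call held without any single library. Both groups were far below the Control mean of 4857 CPM for Lox. Eln, elastin itself, measured 344, 342 and 352 CPM in SFSN-EC and 427, 409.6 and 384 CPM in SFSN-Adipo (log2 difference -0.23, SE 0.046, adjusted p = 0.00655) and lost its call without SFSN-Adipo 1 (adjusted p = 0.0528). Fbln2, at -0.32, lost its call without SFSN-Adipo 1, SFSN-Adipo 2, SFSN-Adipo 3 or SFSN-EC 1 (adjusted p = 0.0539 to 0.07). Ltbp4, at -0.42, lost it without SFSN-Adipo 1, SFSN-Adipo 2, SFSN-Adipo 3, SFSN-EC 1 or SFSN-EC 3 (adjusted p = 0.0519 to 0.0978). Ltbp1, at 0.14, was the higher one and lost its call without SFSN-Adipo 1, SFSN-Adipo 2, SFSN-Adipo 3, SFSN-EC 2 or SFSN-EC 3 (adjusted p = 0.0712 to 0.173). Of 16 cartilage genes, Fmod, a collagen-binding proteoglycan, was lower at 51.8, 41.2 and 49.9 CPM in SFSN-EC and 66.3, 60.8 and 63.2 CPM in SFSN-Adipo (log2 difference -0.41, SE 0.084, adjusted p = 0.00736), as was Cilp2, while Cilp was higher at 0.21 and lost its call without SFSN-Adipo 1, SFSN-Adipo 2, SFSN-Adipo 3, SFSN-EC 2 or SFSN-EC 3 (adjusted p = 0.1 to 0.165).

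Stromal genes differed little where they were called. Beside each count of edgeR calls in this paragraph, 2.09% of all genes were called higher and 1.73% lower. Of 12 stromal and mesenchymal stem cell genes tested, 3 were higher and none lower, and the median was 0.01; limma on TPM called none. They were Grem1, Cxcl12 and Cd44, the hyaluronan receptor, which measured 1138, 1154 and 1155 CPM in SFSN-EC and 1023, 988 and 1024 CPM in SFSN-Adipo (log2 difference 0.18, SE 0.032, adjusted p = 0.00248). Among the 8 called genes with the highest mean CPM, Ccdc80, a secreted matrix protein that is abundant in fat tissue, measured 5860.1, 6273 and 6342 CPM in SFSN-EC and 6888, 6876 and 6783 CPM in SFSN-Adipo (log2 difference -0.15, SE 0.032, adjusted p = 0.00923), and Dstn, an actin-severing protein, measured 3566, 3183 and 3218 CPM in SFSN-EC and 2871, 2825 and 2805 CPM in SFSN-Adipo (log2 difference 0.23, SE 0.046, adjusted p = 0.00735). Ccdc80 lost its call in limma on TPM, in the fit on 6 libraries and once each library's gene-length trend was removed. Il1rl1, the receptor for Il33, averaged 2747 ± 118 CPM in SFSN-EC and 2450.3 ± 49.2 CPM in SFSN-Adipo (log2 difference 0.17, SE 0.042, adjusted p = 0.0348) and lost its call without SFSN-Adipo 1, SFSN-Adipo 2, SFSN-Adipo 3, SFSN-EC 2 or SFSN-EC 3 (adjusted p = 0.073 to 0.139). Of 13 smooth muscle contractile genes, 1 was higher: Lmod1, a leiomodin of actin filaments, measured 381, 348 and 348 CPM in SFSN-EC and 293, 275 and 294 CPM in SFSN-Adipo (log2 difference 0.32, SE 0.046, adjusted p = 0.000332). DESeq2 called 3 of these 13 higher, limma on TPM 5, and limma voom 5 higher and 1 lower. Of 9 osteoblast genes, Col1a1 was the 1 call, lower in SFSN-EC, while 6 of the 9 lay above 0 and 3 below, with a median of 0.21. Ibsp, at 0.28, and Dmp1, at 0.74, did not pass the test (adjusted p = 0.0505 and 0.0616). At an unadjusted p under 0.05 there were 5 of the 9, beside 963 of all 6659 genes tested. DESeq2 and limma voom called 3 each in either direction, and limma on TPM 1. None of 6 neuronal genes was called by edgeR, DESeq2 or limma, and none had an unadjusted p under 0.05, and the 10 red blood cell genes in the table all had fewer than 10 counts in each library. Of 36 entries in the marker column that came with the deposited table, 20 genes could be tested; none was higher and 2, Col1a1 and Col3a1, were lower, with a median of 0.03.

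Stress lists held calls in both directions, beside 3.81% of all genes called. Of 16 heat shock genes, 2 were higher and 1 lower. LOC108348108, which RefSeq names Hspa1b and which has a near-identical copy that may share its reads, measured 399, 355 and 353 CPM in SFSN-EC and 269.8, 244 and 256 CPM in SFSN-Adipo (log2 difference 0.53, SE 0.068, adjusted p = 0.000123). Cryab, a small heat shock protein, measured 217, 131 and 142 CPM in SFSN-EC and 112, 107 and 101 CPM in SFSN-Adipo (log2 difference 0.62, SE 0.15, adjusted p = 0.0303), with SFSN-EC 1 far above the rest, and lost its call without SFSN-Adipo 1, SFSN-Adipo 2, SFSN-Adipo 3 or SFSN-EC 1 (adjusted p = 0.0686 to 0.138). Hsph1 lay at -0.20 and lost its call without any 1 of the 6 libraries (adjusted p = 0.055 to 0.155).

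Of 21 genes of the ATF4 and unfolded protein response, 3 were lower and 1, Atf3, higher; limma voom and limma on TPM each called 5 lower and 1 higher. Herpud1, a membrane protein of endoplasmic reticulum quality control, measured 159.8, 148 and 149 CPM in SFSN-EC and 202, 197 and 193 CPM in SFSN-Adipo (log2 difference -0.37, SE 0.055, adjusted p = 0.000459). Chac1, a glutathione-degrading enzyme that ATF4 induces, measured 79.5, 65.9 and 69.6 CPM in SFSN-EC and 99.7, 101 and 104 CPM in SFSN-Adipo (log2 difference -0.50, SE 0.10, adjusted p = 0.00872). In both genes the groups were well apart, whereas Gpt2, an alanine transaminase, at -0.30, lost its call without SFSN-Adipo 2, SFSN-Adipo 3, SFSN-EC 2 or SFSN-EC 3 (adjusted p = 0.0593 to 0.135). Atf3, which belongs to this list as well as to the immediate early genes, thus lay on the other side of 0 from Herpud1 and Chac1.

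Of 17 hypoxia and glycolysis genes, 1 was higher and 1 lower; limma voom called 1 higher and 6 lower, and limma on TPM 1 higher and 5 lower. Car9, a carbonic anhydrase induced by low oxygen, measured 75.1, 63.7 and 63.4 CPM in SFSN-EC and 47.1, 41.6 and 42.1 CPM in SFSN-Adipo (log2 difference 0.63, SE 0.10, adjusted p = 0.000943), and kept its call without any single library. Ldha, lactate dehydrogenase A, averaged 1215 ± 28.1 CPM in SFSN-EC and 1402 ± 48.8 CPM in SFSN-Adipo (log2 difference -0.21, SE 0.045, adjusted p = 0.0126) and lost its call without SFSN-Adipo 1, SFSN-EC 2 or SFSN-EC 3 (adjusted p = 0.0525 to 0.0784). Of 25 cell cycle genes, 1 was lower, the mitotic kinase Bub1 at -0.22, which lost its call without SFSN-Adipo 2, SFSN-Adipo 3, SFSN-EC 1, SFSN-EC 2 or SFSN-EC 3 (adjusted p = 0.064 to 0.212). Of 15 p53 targets, Btg2 was the 1 call, and of 9 circadian clock genes Bhlhe40. Beside the edgeR counts of this paragraph, 3.81% of all genes were called. None of 20 interferon response and 19 glutathione and oxidative stress genes was called in edgeR's quasi-likelihood test. In that test 5 and 2 had an unadjusted p under 0.05, beside 963 of all 6659 genes tested. DESeq2 and limma on TPM called none, and limma voom called 0 and 1.

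**Figure D4:**
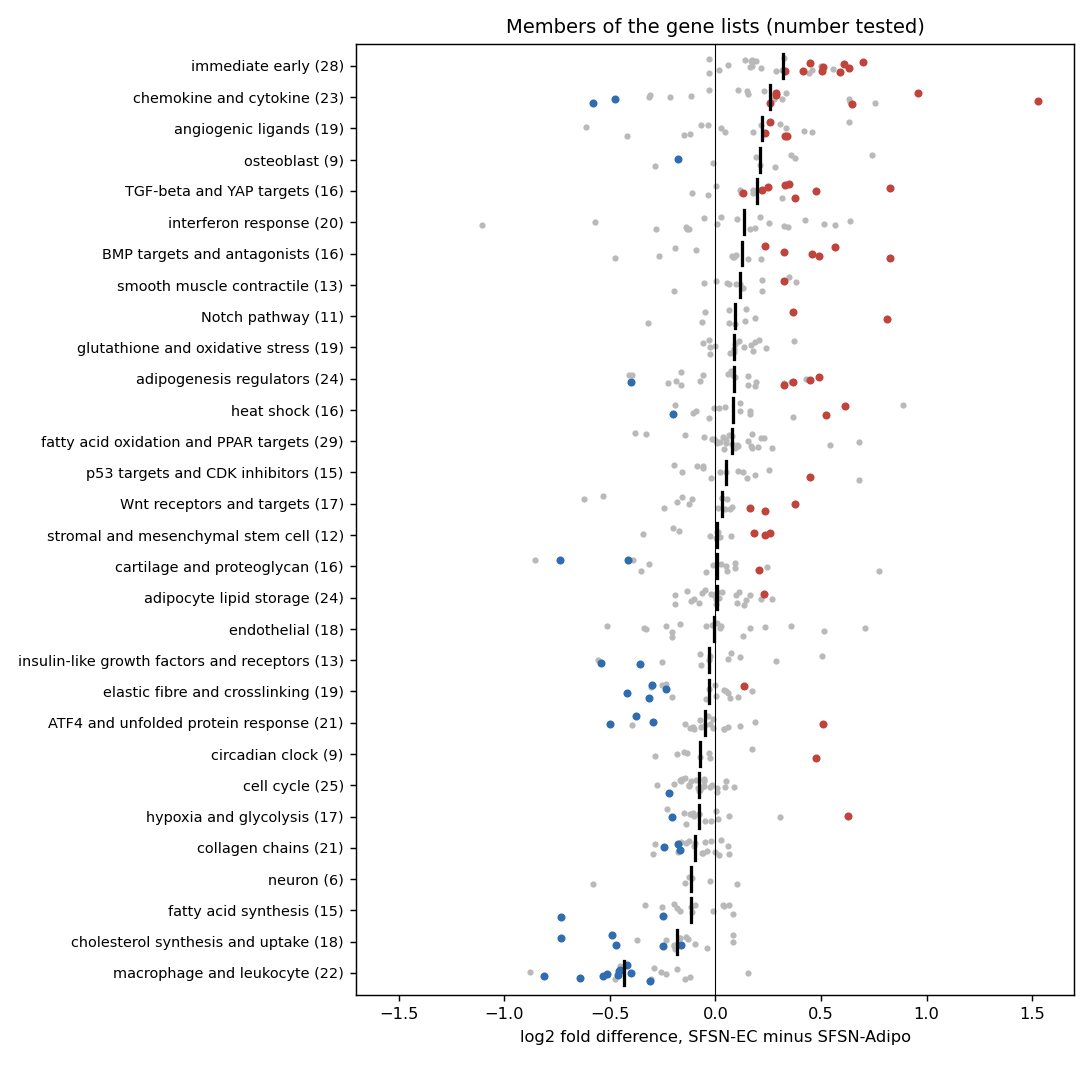
Log2 fold difference of SFSN-EC minus SFSN-Adipo for the tested members of 30 gene lists, ordered by the list's median (black bar); red points are called higher, blue points called lower and grey points not called, and 1 member beyond the axis is not drawn. The immediate early list lies highest, at a median of 0.32, and the macrophage and leukocyte list lowest, at -0.43.

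The position of both groups among the 6 SFSN groups differed between the 2 directions. Of the 139 genes called higher in SFSN-EC, SFSN-Adipo had the lowest mean of the 6 in 88 (63.3%), against 27.0% of all tested genes with that sign, and SFSN-EC had the highest mean in 33 (23.7%), against 26.6%. Of the 115 genes called lower, SFSN-EC had the lowest mean in 31 (27.0%, against 18.9%) and SFSN-Adipo the highest in 42 (36.5%, against 29.1%). Cxcl1 and Irg1 are cases in which neither group lay at an end, whereas Arl4c, Lbh and Id1 were lowest in SFSN-Adipo. These positions are descriptions of the same libraries that gave the calls and carry no test.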

How the data were processed

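The labels give total RNA of 7 groups with 3 libraries each. Per the submitters' processing notes, reads were filtered with SOAPnuke 2.2.1 and aligned to Rnor_6.0 with HISAT2 2.2.1 and Bowtie2 2.4.5, and genes were quantified with RSEM 1.3.1. The authors deposited expected counts, FPKM, TPM and a normalized signal per library, per the file headers; the signal and FPKM gave no value here. The table covers part of each library, genes up to Map2k1, so CPM refer to the counts on those genes (8113600 to 8934239 per library, which set the counting precision).

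Expected counts (84.4% of nonzero values whole) were rounded and tested with edgeR 4.0.16: filterByExpr (minimum count 10), TMM, 1 mean per group over all 21 libraries, quasi-likelihood test. SE is the log2 difference divided by the square root of F. Symbols turned into dates (26) were restored from gene IDs, and RefSeq names were matched for 8666 IDs. Alternatives used limma 3.58.1 and DESeq2 1.42.0 under R 4.3.3. The code was tested on simulated data. Named genes were all endothelial and adipocyte storage members, the 12 highest and 12 lowest called genes with a mean of at least 10 CPM and no overlap, up to 5 called members of each other list by smallest adjusted p, and the 8 called genes with the highest CPM. Members and lists were chosen with earlier results of these data known. A few genes are not reported here.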

Additional observations from a re-analysis of the deposited data

How the results depend on the processing

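All 254 called genes kept their direction under every alternative that gave them a value. The count was 12 (9 higher, 3 lower) in the 6 libraries alone, 622 (344 higher, 278 lower) with limma voom and sample weights, in which SFSN-EC 1 had a weight of 0.123, and 454 (282 higher) over the 5563 genes with a known length after each library's length trend was removed; in log2(TPM + 1) with limma 69 genes were higher. Leaving out 1 library gave 147 to 244 calls (82 to 152 higher, 65 to 92 lower). Leaving out SFSN-EC 1 and SFSN-Neu 2 together, chosen after seeing the data, gave 310 (190 higher, 120 lower). DESeq2 called 306, RLE size factors 255, total-count scaling 241 and no low-count filter 190.

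By list, the 6 libraries alone called 2 immediate early, 1 chemokine, 1 BMP, 0 TGF-beta and YAP and 0 adipocyte genes higher, and 2 macrophage and 0 cholesterol genes lower. Voom called 17 immediate early and 2 endothelial genes higher and 8 cholesterol genes lower. TPM called 3 chemokine, 1 TGF-beta and YAP and 0 adipocyte genes higher. No low-count filter called 5 TGF-beta and YAP genes higher and 3 cholesterol genes lower. Single removals gave 8 to 13 immediate early, 4 to 6 chemokine, 3 to 6 BMP and 3 to 8 TGF-beta and YAP genes higher, and 7 to 11 macrophage and 2 to 4 cholesterol genes lower; removing SFSN-EC 1 and SFSN-Neu 2 gave 15 immediate early genes.

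Replicate numbers were not used as pairs in the main fit. Deviations of same-numbered SFSN-EC and SFSN-Adipo libraries correlated at 0.25, 0.14 and 0.05, and those of different-numbered libraries at -0.25 to 0.13. Whether the numbers mark pairs was not tested. With the replicate number as a block, 230 genes were called. Levels near 1 CPM rest on about 10 counts, so small differences in genes such as Icam2 or Lyve1 could be missed; larger ones were called at such levels, as in Kbtbd11 (0.972 against 2.84 CPM).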
